A study of Homo sapiens with 6 samples.

Results

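The genes INTS1 to INTS10 encode subunits of Integrator, and the peaks of a poly(A) 3′-seq peak list that fall in these 10 genes are described here. Poly(A) 3′-seq reads begin where a transcript joins its poly(A) tail, so that a pile of reads marks a candidate polyadenylated 3′ end. A peak was taken as a member when its summit lay in the gene body as annotated by GENCODE or up to 4000 bp past its 3′ end. Of the 200023 peaks in the list, 142 met this rule, and all 10 genes had at least 1 of them. With a −log10 q-value of at least 5, the cutoff the study applied, 108 of the 142 peaks remained (76.1%, 95% Wilson interval 68.4 to 82.3), against 72.2% of the gene and peak pairs formed in the same way over all 20033 protein-coding genes.

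The RNA came from IMR-32, a MYCN-amplified human neuroblastoma line, all of it grown in the same RPMI-1640 medium with serum and antibiotics and with no genetic change named in the labels. The 6 libraries were 2 from cells given the solvent DMSO, 2 from cells given THZ531, a covalent inhibitor of the transcriptional kinases CDK12 and CDK13, at 400 nM for 2 h, and 2 with the same dose for 6 h. The labels do not say for how long each DMSO sample was kept. The purpose was to see where transcripts end when CDK12 and CDK13 are inhibited, but the peaks were called once on merged reads, taken here to be those of the 6 libraries. The list therefore has neither a value per library nor a strand, and nothing below compares DMSO with THZ531 or has a replicate error. Intervals cover counting error only, and no test was made.

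Integrator is a large complex that travels with RNA polymerase II and cuts nascent RNA. It makes the 3′ ends of the spliceosomal small nuclear RNAs and also cuts enhancer RNAs and the short nascent transcripts of many protein-coding genes, where the cut ends transcription early. The complex carries an endonuclease and recruits the phosphatase PP2A, which removes phosphates that kinases such as CDK9 place on the polymerase and its partners. Messenger RNAs for the subunits themselves are ended by a different machinery, that of cleavage and polyadenylation, which reads a hexamer such as AATAAA a short way upstream of the cut.

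Reads start at the cut, so the cut falls on the downstream side of a peak in the direction of transcription. That side is named the 3′ edge below. To show what the sites look like, the 30 bases of the GRCh38 reference that end at the 3′ edge are given for the peak at the canonical transcript's end of 5 members, 5′ to 3′ on the strand of the gene, with capitals for any of 12 polyadenylation hexamers.
INTS2 canonical end, chr17:61865374-61865403, minus strand: attggttTATAAAcattcatattctttatc
INTS3 canonical end, chr1:153774784-153774813, plus strand: ccaATTAAAaccaggatggagagcatttgc
INTS4 canonical end, chr11:77878722-77878751, minus strand: tcctgtccacAATAAAgttgagaaaacacc
INTS6 canonical end, chr13:51361579-51361608, minus strand: attccatggAATAAAttccttattgaaggt
INTS7 canonical end, chr1:211940313-211940342, minus strand: taaaaAATAAAaaggggttgttgttttttt
The first base of the hexamer stood 20 bases from the edge in INTS4, 21 in INTS6, 23 in INTS2, 25 in INTS7 and 27 in INTS3, counting the edge base as 1. These 5 were chosen after their values were seen, and at the 3 other canonical ends with a peak the nearest hexamer stood 38 (INTS9), 39 (INTS10) and 89 (INTS5) bases from the edge. The tallest intronic peaks with 1 gene strand were more mixed, and 4 of them are shown in the same way.
INTS1 intron 22, chr7:1486265-1486294, minus strand: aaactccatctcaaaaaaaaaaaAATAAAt
INTS2 intron 2, chr17:61925159-61925188, minus strand: ttatagcttatttcAATAAAagataatttt
INTS3 intron 1, chr1:153729373-153729402, plus strand: accagatagcacacacacaggagagaacac
INTS7 intron 11, chr1:211976834-211976863, minus strand: aaaaaATTAAATAAAtgtcattggaaaaca
The nearest hexamer stood 16 bases from the edge in INTS2 and 21 in INTS7, the INTS1 hexamer lay at the end of a run of A, 7 bases from the edge, and the INTS3 peak had none. Another kind of intronic peak stopped just before A-rich genomic sequence, on which oligo(dT) can prime. For these the 30 bases after the 3′ edge are given, with A in capitals.
INTS2 intron 9, chr17:61901579-61901608, minus strand: AAAAAAAAAAAAAAAAAAAAAAAAAAAAAA
INTS7 intron 13, chr1:211969528-211969557, minus strand: AAAAAAgAAAAgAAAAAgAAAAAgAAAttt

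Taking the 108 peaks together, 26 lay at an annotated end of a transcript of the same gene (24.1%, 95% Wilson interval 17.0 to 32.9), meaning 200 bp upstream to 600 bp downstream of that end. Another 16 lay in other exons (14.8%, 9.33 to 22.7), 60 in introns (55.6%, 46.2 to 64.6) and 6 past the 3′ end (5.56%, 2.57 to 11.6). Over all protein-coding genes these shares were 20.2%, 10.3%, 64.0% and 5.51%, each inside the interval of the members. Of the members' peaks, 16 had −log10 q of at least 20 (14.8%, 9.33 to 22.7), against 10.3% over all protein-coding genes. Of these 16, 11 lay at annotated ends and 4 in introns, and this split was not computed over all genes. When a member is measured against its canonical transcript alone, 76 peaks lay inside its introns, since 9 annotated alternative ends and 7 exons of other transcripts fall there. Another annotated end, of a longer INTS6 transcript, lay past the canonical one.

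The height of a peak is given as the number of extended reads over its summit. The median was 18.5 reads at own ends, 15.5 in exons, 13 in introns and 21 past the 3′ end, and over all protein-coding genes it was 19, 17, 12 and 20. The 34 peaks under the cutoff had 3 to 13 reads with a median of 6, and 25 of them were intronic. As heights count distinct read starts, with 200 the highest in the list, tall sites are compressed and ratios between peaks are smaller than those between transcripts.

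**Figure D1:**
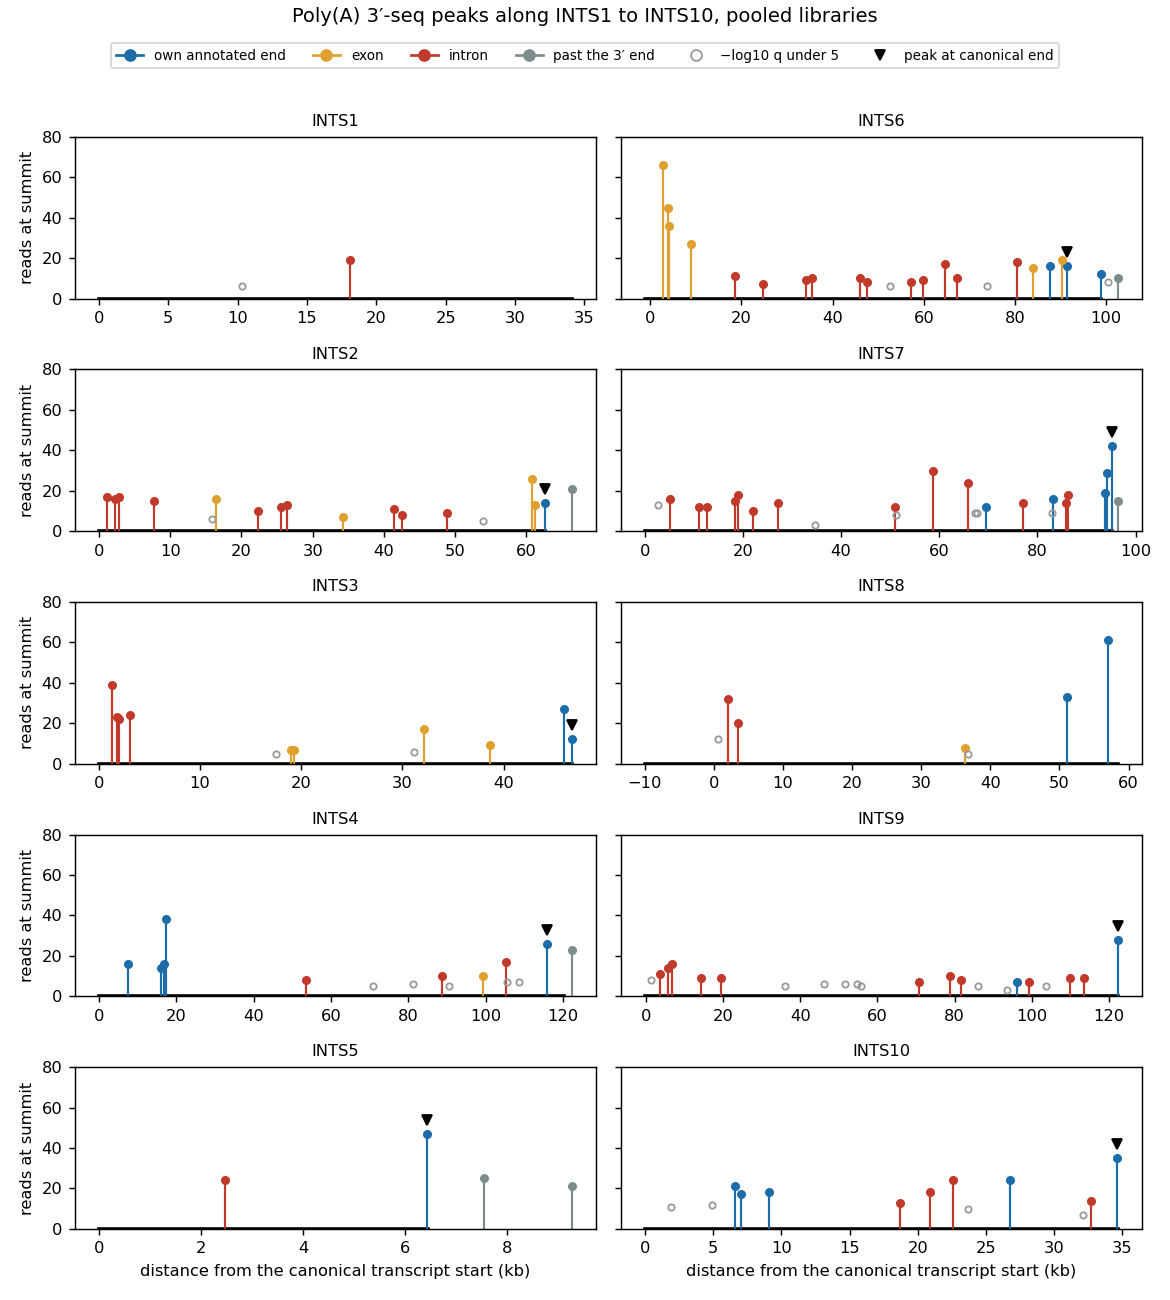
Reads at the summit (vertical axis) of each peak against distance from the start of the canonical transcript in kb (horizontal axis, different for each gene), in the pooled libraries. Colours give the class of the peak, open circles are peaks with −log10 q under 5, the black bar is the gene and a triangle marks a peak at the canonical end; INTS1 and INTS8 have no triangle, and the tallest peak of INTS6, with 66 reads, stands near its start.

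Of the 10 members, 9 had a peak at an annotated end, against 64.1% of protein-coding genes. A peak at the end of the canonical transcript was found in 8 of these 9 (83.6% of genes with an own-end peak). All 9 had an intronic peak, as did 79.1% of genes with an own-end peak and an intron, and INTS1, the member without an own-end peak, had one too. The tallest intronic peak was higher than the tallest own-end peak in 3 of the 9, INTS2, INTS3 and INTS6, against 34.7% of genes that had both. A peak past the 3′ end was found in 5 of the 9 (31.2%), and of these 6 peaks only that of INTS7, with 15 reads, had no other gene at its summit. The count of genes with the taller peak in an intron was thus close to the background.

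INTS1, INTS2 and INTS7 belong to the scaffold of the complex, on which the other modules are held. INTS1 (chr7:1470277-1504389, minus strand, 34.1 kb), the largest subunit with 2190 residues, was nearly empty. It had 2 peaks in all and 1 over the cutoff, with 19 reads (exact 95% Poisson interval 11.4 to 29.7), in intron 22 after 45.3% of the coding sequence. This is the A-rich site printed above. No peak was listed at its canonical end, where the nearest peaks in the list lay 5.62 kb downstream and 16.0 kb upstream. Its 1 intronic peak placed it at the 15.6th percentile among 632 detected genes of similar length, whose median was 3. A detected gene here is one with an own-end peak.

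INTS2 (chr17:61865367-61928016, minus strand, 62.7 kb) had 16 peaks over the cutoff, of which 10 were intronic, 4 exonic, 1 at its end and 1 past it. The canonical end had 14 reads (7.65 to 23.5), at the 16.0th percentile of tallest own-end peaks among detected genes. The tallest intronic peaks, 1.16 kb and 2.75 kb from the start, had 17 reads each (9.90 to 27.2), which overlaps the end. A taller peak with 26 reads (17.0 to 38.1) lay in the last exon, after the coding sequence and 60.8 kb from the start, where the canonical end peak is at 62.6 kb, with no hexamer before its edge. Of the 10 intronic peaks, 5 had a hexamer and 4 of the other 5 stood before A-rich sequence. The number of 10 was at the 85.0th percentile of genes of its length, whose median was 6. Its downstream peak with 21 reads lay in BRIP1, the next gene on the same strand, so that it need not belong to INTS2.

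INTS7 (chr1:211940399-212035557, minus strand, 95.2 kb) had the most intronic peaks of the members, 13 of 19, a number at the 76.7th percentile for genes as long. A hexamer preceded 10 of these 13, the highest number of any member. The gene ended in a tandem of 3 peaks in the last exon with 19, 29 and 42 reads, of which the last, at the canonical end, was tallest (30.3 to 56.8). Annotated alternative ends in introns 16 and 17 had 12 and 16 reads. Its tallest intronic peak, in intron 11 after 50.9% of the coding sequence, had 30 reads (20.2 to 42.8) and 5 hexamers in the 100 bases before the edge. The next, in intron 13, had 24 reads, no hexamer, and the run of A interrupted by single G bases printed above. The end was thus taller than any intronic peak, by an amount within the counting error.

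INTS4 and INTS9 make up the endonuclease together with INTS11, in which INTS9 is the inactive partner of the catalytic INTS11 and INTS4 joins them. These genes are about equally long, with 120.3 kb for INTS4 (chr11:77874418-77994715, minus strand) and 122.6 kb for INTS9 (chr8:28767661-28890242, minus strand), but their peaks lay in different classes. INTS4 had 3 intronic peaks and INTS9 had 11. Among genes of this length, whose median was 10, these numbers were at the 10.4th and the 55.7th percentile. Counting every peak inside the canonical introns, annotated or not, the numbers were 8 and 12.

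In INTS4 the tallest peak was at an annotated end of another transcript in intron 4, 17.3 kb from the start and after only 16.3% of the coding sequence. It had 38 reads (26.9 to 52.2) and 3 hexamers, with ATTAAA 34 bases from the edge. Another 2 annotated ends in the same intron, 16.7 and 16.1 kb from the start, had 16 and 14 reads, and one in intron 2 had 16. The end at 16.7 kb had no hexamer and stood before A-rich sequence. The canonical end, 115.9 kb from the start, had 26 reads (17.0 to 38.1). Its interval overlaps that of the intron 4 end. The canonical end lies over AAMDC on the opposite strand, as do 4 further INTS4 peaks, so that these reads could belong to either gene, although AATAAA stood 20 bases from the edge on the INTS4 strand. A peak of 23 reads past the end also lay in AAMDC, with AATAAA 27 bases from the edge on the strand of that gene and no hexamer on the strand of INTS4.

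In INTS9 the canonical end was the tallest peak, with 28 reads (18.6 to 40.5), a hexamer AATATA and no A-rich sequence after it. Its 11 intronic peaks were low, from 7 to 16 reads with a median of 9. The first intron, 30.3 kb long, held 5 of them. A hexamer preceded 4 of the 11, and 6 stood before at least 18 A in 25 bases, 2 of them with a hexamer too. An annotated alternative end in intron 10 had 7 reads and AATAAA.

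INTS5, INTS6 and INTS8 are the subunits that hold PP2A on the complex. INTS5 (chr11:62646848-62653302, minus strand) is the shortest member, 6.46 kb with 1 intron. Its canonical end had 47 reads (34.5 to 62.5), at the 89.3rd percentile of detected genes, with AATAAA 89 bases from the edge. The intron peak had 24 reads (15.4 to 35.7) and neither a hexamer nor A-rich sequence. Another annotated gene of the same strand lies at its summit, so that it need not belong to INTS5. Without peaks that have another gene at the summit, 9 members had an intronic peak. Both peaks past the end, with 25 and 21 reads, lay in GANAB, the next gene on the same strand. All 4 stood on local backgrounds of 3.39 to 4.67 reads, higher than at most member peaks.

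INTS6 (chr13:51354077-51454264, minus strand, 100.2 kb) had 21 peaks, the most of any member, and they formed 2 separate sets. Near the start, between 2.79 and 8.93 kb, 4 peaks had 66 (51.0 to 84.0), 45 (32.8 to 60.2), 36 (25.2 to 49.8) and 27 (17.8 to 39.3) reads. They lay in exons of other INTS6 transcripts inside canonical intron 3, after 12.7% of the coding sequence. The tallest had no hexamer, and the next 2 had AGTAAA and ATTAAA 20 bases from the edge. The peak with 36 reads had its summit at 51448876 and its edge at 51448578. Its edge therefore locates a cut poorly, and its ATTAAA lies well past the summit. The local background under these 4 peaks was 4.60 to 8.62 reads, and 8.62 was the highest at any member peak. The remaining 17 peaks had at most 19 reads. Among these, the canonical end had 16 (9.15 to 26.0), as did another annotated end in the same exon, and the tallest intronic peak, in intron 15, had 18 (10.7 to 28.4) and A-rich sequence after it. This intronic peak spanned 268 bp, with its summit at 51372514 and its edge at 51372328. The A-rich bases thus begin well past its summit. The own end stood at the 21.7th percentile of detected genes. Of 11 intronic peaks, 4 had a hexamer and 6 stood before A-rich sequence, 2 of them with both. SERPINE3 lies over the 3′ part of INTS6 on the opposite strand, and 4 peaks, the canonical end among them, could belong to either gene.

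INTS8 (chr8:94813311-94881746, plus strand, 68.4 kb) had only 5 peaks, but 3 of them had −log10 q of at least 20. The tallest, with 61 reads (46.7 to 78.4), was at an annotated end inside the last exon, 1.45 kb before the canonical end, which had no peak in the list. This was the tallest own-end peak of the members, at the 96.8th percentile of detected genes. CCNE2 lies opposite at this place. AATAAA stood 22 bases from the edge on the INTS8 strand, and AGTAAA 27 bases from the edge on the CCNE2 strand. The peak spanned 405 bp, with its summit at 94880294 and its INTS8-strand edge at 94880607. This edge therefore locates a cut poorly, and the hexamers do not assign the reads to 1 gene. Another annotated end, in intron 22 after 88.3% of the coding sequence, had 33 reads (22.7 to 46.3). Intron 2 held both intronic peaks, with 32 (21.9 to 45.2) and 20 reads, after 10.2% of the coding sequence. The taller had AATAAA 20 bases from the edge and 30% A in the 20 bases after it. It spanned 269 bp, with its summit at 94825378 and its edge at 94825594, so that these bases lie well past the summit. The number of 2 intronic peaks was at the 12.8th percentile of genes of this length.

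INTS3 (chr1:153728050-153774808, plus strand, 46.8 kb) joins Integrator and also scaffolds a complex that binds single-stranded DNA at breaks. All 4 of its intronic peaks lay in the first intron, within 3.09 kb of the start, with 39 (27.7 to 53.3), 23, 22 and 24 reads. None of the 4 had a hexamer in the 100 bases before its edge or 18 A after it, and the local background was 3.67 to 3.85 reads. The widest of them, the peak with 39 reads, spanned 513 bp, so that its edge locates a cut poorly. At the 3′ end, an annotated end in the last exon had 27 reads (17.8 to 39.3) with AATAAA 58 bases from the edge, and the canonical end had 12 (6.20 to 21.0). These summits stood 45.98 and 46.7 kb from the start. The first-intron peak and the tallest end overlapped in their intervals. An exonic peak in canonical intron 11, with 17 reads, stood before A-rich sequence.

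INTS10 (chr8:19817391-19852083, plus strand, 34.7 kb) is part of the arm of the complex that INTS13 and INTS14 share and that binds nucleic acid. It had 5 own-end peaks and 4 intronic ones out of 9. The canonical end had 35 reads (24.4 to 48.7), with AATAAA 39 bases from the edge. Annotated ends of other transcripts in canonical exons 7, 9 and 15 and in intron 7 had 21, 18, 24 and 17 reads, so that transcripts with 39.25% to 87.7% of the coding sequence upstream are among the annotated ends with peaks. The end in intron 7 had no hexamer and stood before A-rich sequence. All 4 intronic peaks lay beyond 18.7 kb, after at least 71.8% of the coding sequence, with 13 to 24 reads, and 3 of them stood before A-rich sequence. INTS1 is of almost the same length and had 1 intronic peak where INTS10 had 4.

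**Figure D2:**
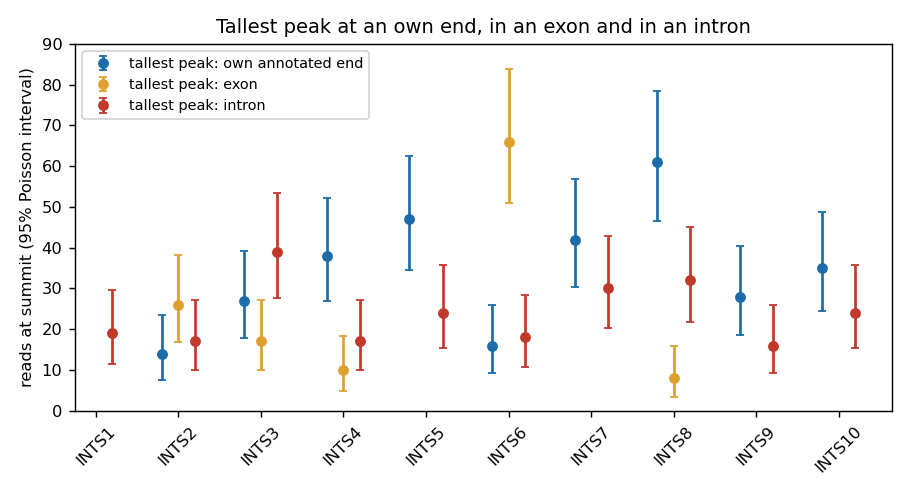
Reads at the summit of the tallest peak at an own annotated end, in an exon and in an intron for each member, with exact 95% Poisson intervals as bars, from the pooled libraries. INTS8 has the tallest own end (61 reads) and INTS6 the tallest exonic peak (66 reads), whereas the intervals of end and intron overlap in most genes.

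The tallest intronic and tallest own-end peaks of each gene were then set against each other as the intronic share of their summed height, with exact 95% binomial intervals. In INTS3 this share was 59.1% (46.3 to 71.0), in INTS2 54.8% (36.0 to 72.7) and in INTS6 52.9% (35.1 to 70.2), so that the intronic peak was not distinguishable from the end in any of these 3. The share was 41.7% (30.2 to 53.9) in INTS7, 40.7% (28.1 to 54.3) in INTS10 and 36.4% (22.4 to 52.2) in INTS9, which also include 50%. In INTS8 with 34.4% (24.9 to 44.98), INTS5 with 33.8% (22.997 to 46.0) and INTS4 with 30.9% (19.1 to 44.8) the interval lay under 50%. These intervals treat both peaks as fixed, although each was picked as the tallest of its class, so they describe and do not test. No such intervals were computed for other genes. The INTS4 end with 38 reads lies in canonical intron 4, and its intronic peak with 17 reads lies over AAMDC on the opposite strand. The INTS8 value rests on the peak that CCNE2 overlaps on the opposite strand, and the other annotated end of INTS8 had 33 reads against 32 in intron 2. The 3 genes with a taller intronic peak also depended on the settings. INTS4 joined them with ends from the canonical transcript alone or within 100 bp of an end, INTS1 joined them without a cutoff, where an annotated end with 6 reads counts, and INTS6 left them when peaks before at least 18 A were removed.

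Intronic peaks are more numerous in longer genes, and the members were long, with a median of 65.5 kb against 36.0 kb in detected genes with an intron. They had a median of 4 intronic peaks against 3. Summed over the genes, the members had 0.108 intronic peaks per kb of intron and the detected genes 0.0883. Within bins of genes of similar length, the number of intronic peaks ran from the 10.4th percentile in INTS4 to the 87.6th in INTS5, with 4 members below the 50th and 6 above. INTS5 reached its place with 1 peak, at which another gene of the same strand lies, as the median of its bin was 0. The members therefore lay on both sides of the genes of their own length.

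**Figure D3:**
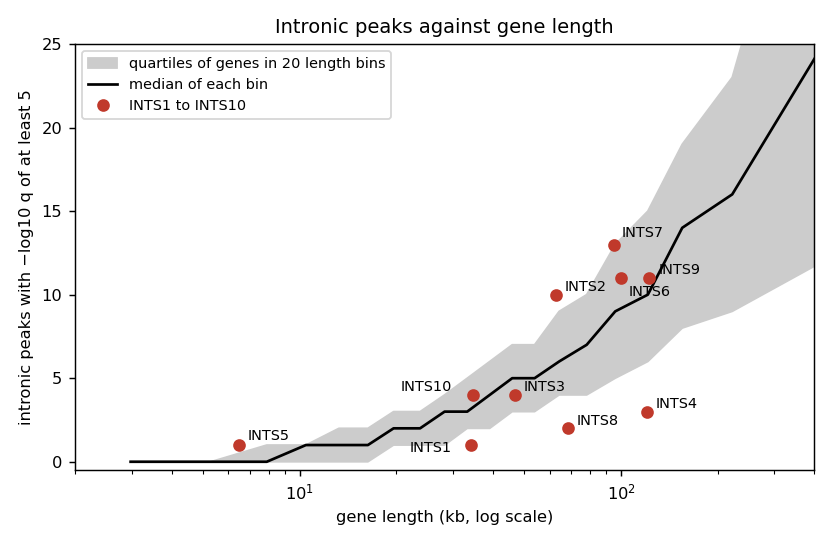
Number of intronic peaks with −log10 q of at least 5 (vertical axis) against gene length in kb (horizontal axis, log scale) for the 10 members, as red points, over the median (line) and quartiles (grey band) of detected genes with an intron in 20 bins of length, with the vertical axis ending at 25 peaks. INTS1, INTS4 and INTS8 lie under the quartiles of their bin and INTS2 and INTS5 above, while INTS4 and INTS9, of like length, have 3 and 11 peaks.

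The place of intronic peaks along the gene differed among the members, and no value over all genes was computed for it. The first intron held 14 of the 60 (23.3%, 95% Wilson interval 14.4 to 35.4) and 12.3% of the intronic bases, with genes weighted by their number of peaks. Introns 1 to 4 held 29 (48.3%, 36.2 to 60.7) and 35.6% of the bases. INTS4 and INTS10 had none of their 3 and 4 intronic peaks in introns 1 to 4, which hold 29.3% and 13.9% of their intronic bases, and INTS6 had 7 of 11 there, with 67.3% of the bases. The 14 peaks came from 5 genes, with 5 in INTS9, 4 in INTS3, 3 in INTS7 and 1 each in INTS2 and INTS5, and INTS5 has no other intron. Less than 50% of the coding sequence lay upstream of 42 of the 60. Of all classes, 26 of the 108 peaks lay within 10 kb of the start, with a median of 21 reads on a median local background of 2.46 reads, whereas the other 82 had a median of 13 reads on 0.845. The listed peaks near the start were thus taller and stood on denser reads. As peaks were called without a control, the local background came from the same reads as the peaks, so height and background are not independent. The cutoff is set against the local background, so a peak needs more reads to be listed where that is higher. The lowest listed peak had 11 reads within 10 kb of the start and 7 further away. The part of the background and of the cutoff in these heights was not tested.

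Hexamers were searched in the 100 bases that end at the 3′ edge of the 96 peaks at which all genes lay on 1 strand. The 12 searched were AATAAA and 11 hexamers that differ from it by a single base, with neighbours free to overlap. The first base differs in TATAAA, also in CATAAA, and likewise in GATAAA. The second differs in ATTAAA, also in AGTAAA, and likewise in ACTAAA. The third differs in AAGAAA, the fourth in AATGAA, and the fifth in AATACA, also in AATATA, and likewise in AATAGA. At least 1 was found at 56 of the 96 (58.3%, 48.3 to 67.7), and at 44.8% when the opposite strand was read. Over all protein-coding genes the values were 63.1% and 41.4%. Own ends had a hexamer at 19 of 22 (86.4%, 66.7 to 95.3), exonic peaks at 5 of 12 (41.7%, 19.3 to 68.0) and intronic peaks at 29 of 58 (50%, 37.5 to 62.5). The shares in all genes were 80.7%, 69.0% and 57.7%, of which that for exons lay just above the interval of the members. AATAAA itself preceded 12 of the 22 own ends (54.5%, 34.7 to 73.1) and 10 of the 58 intronic peaks (17.2%, 9.64 to 28.9). In all genes AATAAA preceded 49.1% of own ends and 27.2% of intronic peaks, both inside the intervals of the members. The hexamer closest to the edge lay at a median of 29 bases from it at own ends and 21 in introns. Read on the opposite strand, 54.5% of own ends, 58.3% of exonic and 37.9% of intronic places had a hexamer. On the strand of the gene these were 86.4%, 41.7% and 50%. In all genes the opposite-strand shares were 54.4%, 52.1% and 36.3%.

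A-rich sequence was found at more intronic peaks than own ends, with intervals that overlap. At least 18 A in 25 bases lay within 50 bp after the edge of 22 of the 58 intronic peaks (37.9%, 26.6 to 50.8), against 2 of 22 own ends (9.09%, 2.53 to 27.8), 1 of 12 exonic peaks (8.33%, 1.49 to 35.4) and 28.2% of the intronic peaks of all genes. With at least 22 A, as in the filter of the study, 2 of the 58 remained (3.45%, 0.951 to 11.7), one in INTS2 and one in INTS9, and the value in all genes was 5.76%. In all genes the shares with at least 18 A were 6.98% at own ends and 6.42% at exonic peaks. Of the 20 bases after the edge, a median of 65% were A at intronic peaks and 30% at own ends, against 60% and 25% in all genes. Of the 58 intronic peaks, 22 had a hexamer and no such stretch, 7 had both, 15 had the stretch alone and 14 had neither. These are 37.9%, 12.1%, 25.9% and 24.1%. Over all protein-coding genes the shares were 47.9%, 9.73%, 18.5% and 23.9%, each inside the interval of the members. INTS7 accounted for 9 of the first 22, and INTS2 for 5 more, while INTS3 accounted for 4 of the 14 with neither. Without the 22 peaks before at least 18 A, 38 intronic peaks remained and every member still had at least 1. The INTS1 peak left is the site printed above with a run of A before its edge, and 70% of the 20 bases after it were A. At the INTS5 peak left, another gene of the same strand lies at the summit.

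**Figure D4:**
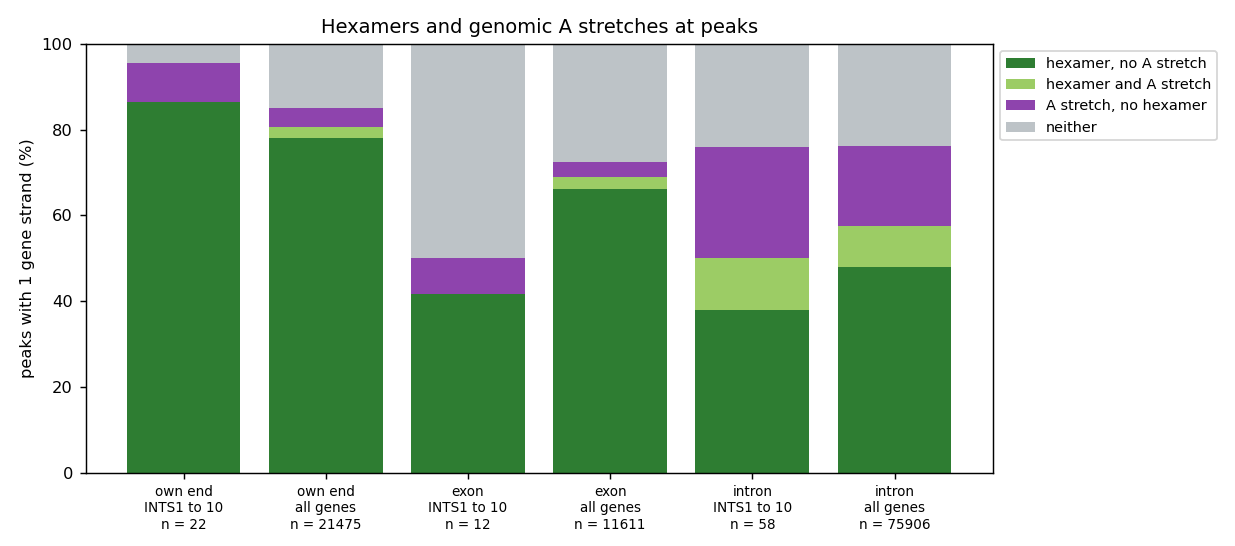
Percent of peaks with a polyadenylation hexamer before the 3′ edge, with at least 18 A in 25 bases after it, with both or with neither, for own ends, exons and introns of INTS1 to INTS10 and of all protein-coding genes (n under each bar, peaks with 1 gene strand). Own ends of the members had a hexamer at 86.4%, and 37.9% of their intronic peaks had a hexamer without an A stretch, against 80.7% and 47.9% in all genes.

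The other Integrator genes and partners, 11 in all, had 105 peaks in the list, and every one had an own-end peak. The catalytic INTS11 had no peak classed as intronic. Its tallest peak, 43 reads, was at an annotated end of another transcript in canonical intron 4, after 23.8% of the coding sequence and with no hexamer, and its canonical end had 33 reads with PUSL1 on the opposite strand. The ends of INTS13 with 46 reads, INTS14 with 42 and INTS15 with 38 were taller than their intronic peaks, which had 15, 13 and 20 reads. At INTS12 the tallest end had 12 reads and the tallest intronic peak 24, but ARHGEF38 lies opposite at both. Of its 19 intronic peaks, 18 had a gene of the other strand at the summit, GSTCD or ARHGEF38, so that these reads need not belong to INTS12. The INTS6 paralogue INTS6L had 35 reads at its end and 24 in an intron. Of the proteins that bind single-stranded DNA with INTS3, INIP had 44 reads at its end, NABP2 25 and NABP1 25, with a taller intronic peak of 30 in NABP1. PPP2CA, the catalytic subunit of PP2A, had 50 reads at its tallest end. Its scaffold PPP2R1A had 34 at an end with an opposite-strand gene, against 38 in an intron outside the canonical transcript, and no peak at its canonical end.

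The neuroblastoma markers MYCN, HAND2 and GATA3 had own-end peaks of 100, 71 and 66 reads, TH and DBH had 23 and 19, and PTPRC of blood cells and ALB of liver had no peak. The collagen gene COL1A1 had 15 reads at its tallest end.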

How the data were processed

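The authors trimmed reads, mapped them to GRCh38 with STAR 2.5.1b (up to 20 placements a read), merged samples and called peaks once with MACS2 2.1.1 without a control, per the study's methods and processing notes. The deposited columns used were the summit offset, the fold enrichment (ratio of summit pileup plus 1 to background plus 1, computed by the authors' peak caller) and its −log10 p and −log10 q. Depth per library is unknown. The pileup at each summit was solved from the fold and −log10 p (largest misfit 0.000172), a step tested on simulated data with Python 3.11.15, numpy 2.4.6, pandas 2.3.3 and scipy 1.17.1. Figures used matplotlib 3.10.9.

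Annotation was Gencode release 44, an update of the one in the study. Classes were assigned by the summit in the order own end, exon, intron and downstream, over all transcripts of a gene. The rule named all 10 members, their tallest own-end and intronic peaks, any peak with −log10 q of at least 20, and 11 other Integrator genes. Members, lists and settings were chosen with earlier results of these data known. The printed canonical-end and A-stretch sequences were chosen after their values were seen. Columns of per-sample values left unused numbered 0. Alternatives covered the cutoff, classes, end windows, hexamers, A stretches and overlapping genes. Another gene of the marker list is not reported here.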

Additional observations from a re-analysis of the deposited data

How the results depend on the processing

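No paired analysis was possible because peaks were called on merged reads, and no replicate could be left out. With −log10 q of at least 20, the members had 16 peaks, 4 intronic in 3 members (25% of peaks; 0.00718 per kb of intron) and 11 at own ends (68.75%), an intronic peak above the own end in 1 gene (INTS3), hexamers at 78.6% and at least 22 A after 0% of intronic peaks. Fewer peaks pass by construction, and these values were not computed over all genes. Without a cutoff the density was 0.152 per kb. With the canonical transcript alone, own-end peaks fell to 8 (7.41%) and the intronic share rose to 71.3% (77 peaks), as other ends become introns, 1 of them past the canonical end. Alternatives added after seeing the data gave other values. Removing peaks before at least 18 A left 38 intronic peaks (45.8%, 0.0682 per kb), and hexamers starting 10 to 40 bases from the edge gave 42.7%. The hexamer share was 26.0% with AATAAA alone, 38.5% with ATTAAA added and 46.9% with the window at the summit. An A stretch was found at 37.9% of intronic peaks when 18 A sufficed, and at 22.4% when both sides of the edge were searched. Causes other than those stated were not tested. The other 55 values moved by less than their interval or by less than 1.5 times. Opposite-strand genes and wide peaks limit what single sites show.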

Other observations

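Small nuclear RNA genes, whose 3′ ends Integrator cuts, also carried peaks, although their mature RNAs normally have no poly(A) tail. Of 16 listed genes, 15 were found by name in the annotation and 14 of these had a peak with −log10 q of at least 5 in the gene or up to 1000 bp past it. No share over other genes or places of like size was computed, so whether peaks are more frequent here than elsewhere is not known. The tallest had 98 reads at RNU2-1, 64 at RNU4ATAC, 59 at RNU5A-1 and 50 at RNU4-2, and RNU1-4 had none. Mapping kept reads that fit up to 20 places, so where such a gene has copies, the reads at 1 copy cannot be told apart from those of another. Genes that overlap these places were not looked up, and the list has no strand, so the reads need not belong to the small nuclear RNA. The list gives no value per treatment for any of them.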
